A study of Mus musculus with 26 samples.

Results

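Cadherins, protocadherins, contactins and related cell adhesion genes were followed as labelled mRNA in oligodendrocyte progenitor cells (OPCs) and in the oligodendrocytes (OLs) that were differentiated from them. The genes were chosen by symbol alone: all Pcdh, Cdh, Celsr, Fat, Cntn, Cntnap, Nrxn, Nlgn and Cadm genes together with Ncam1, Ncam2, L1cam, Nrcam, Nfasc and Chl1. Of 10104 transcripts listed for either cell type, 75 matched. OPCs listed 62 of them, OLs listed 66, and 53 were listed for both. The 75 comprised 37 clustered protocadherins, 10 classical and type II cadherins, 9 non-clustered protocadherins, 5 neurexins and neuroligins, 3 Fat cadherins, 3 Celsr cadherins, 3 Cadm genes, Ncam1 and Ncam2, Nrcam and Nfasc of the L1 family, and Cntn1. Cntn2, Cntnap1, L1cam, Nlgn3 and Pcdh9 were not analysed here.

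Cadherins and protocadherins are transmembrane proteins that bind their own kind on a neighbouring cell through extracellular cadherin repeats. Classical cadherins couple to the actin skeleton through catenins, whereas contactins, neurofascin, NCAMs and Cadm proteins are immunoglobulin-superfamily molecules. Oligodendrocytes use the latter group to attach to axons: the glial form of neurofascin faces contactin 1 and Caspr at the paranodal junction that flanks each node, and Cadm4 is a glial molecule that binds axonal Cadm proteins.

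Both cell types came from 129S/SvEv mice, the OPCs having been made from epiblast stem cells. OPCs (3 replicates) were kept in 20 ng/mL bFGF and 20 ng/mL PDGFA. OLs (2 replicates) were grown in differentiation medium with 100 ng/mL noggin, 100 ng/mL IGF-1, 10 µM cAMP, 10 ng/mL NT3 and 40 ng/mL T3, and the study states that some cells stay undifferentiated. After 40 h in culture, 5-ethynyluridine (5-EU), to which biotin can be coupled, was given to all cultures for 24 h. Uridine then replaced it, and labelled RNA was pulled down and sequenced at 0, 1, 2, 4 and 6 h of this chase, which gave 15 OPC and 10 OL libraries. Levels are in FPKM (fragments per kilobase of transcript, relative to the reads of the library), which the authors set relative to their spike-in RNA. The values at 0 h carry up to 10 significant digits and those from 1 h on 6, although the methods describe the scaling for every time point, so whether the 0 h values were scaled in the same way is uncertain. Levels at 0 h and shares kept are given on the deposited scale. A half-life is the authors' exponential fit for 1 replicate, and values above 6 h were set to 6 h, here called the ceiling. A transcript was listed only if its 0 h FPKM was at least 1 in every replicate of that cell type and it was not at 0 at 1 and 2 h, so a gene that is not listed is not a gene at 0. These are bulk cultures, in which fewer cells of a type and less RNA per cell cannot be told apart.

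Oligodendrocyte markers summed to 39.2 to 57.5 FPKM at 0 h in OPCs (Mbp, Cnp and Ugt8a were listed, of 11) and to 6443 and 2983 FPKM in OL replicates 1 and 2 (10 of 11 listed). All 7 OPC markers were listed for both cell types and summed to 264 to 392 FPKM in OPCs and 618 and 590 FPKM in OLs. Of 7 astrocyte markers, 4 were listed in OPCs and 6 in OLs, with sums of 406 to 487 and of 597 and 733 FPKM, and Aqp4 was not listed. These markers did not move together: S100b was at 9.07 to 10.5 FPKM in OPCs and at 290 and 160 FPKM in OLs, whereas Slc1a3 was at 179 to 224 FPKM in OPCs and at 95.5 and 155 FPKM in OLs, and Gja1 was high in OL replicate 2 alone. Of 10 neuronal markers, 4 and 5 were listed, with sums of 88.1 to 193 and of 219 and 205 FPKM, and Rbfox3, Snap25, Stmn2, Nefl and Nefm were not listed. Of the 5 pluripotent or neural stem markers only Sox2 and Nes were listed, and no marker of microglia or of fibroblasts and vessels was. Their part in the results below was not tested.

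Both short-lived and long-lived members were present, and stretches of their 3′ untranslated regions (UTRs) are shown because such regions carry many of the elements known to act on mRNA decay. TATTTA, the core of AU-rich elements, is in capitals in the first match of each of the short-lived Pcdh18, Cdh10, Cdh11, Cdh19 and Cdh20, and of Cntn1, which was at the ceiling in every replicate:
Pcdh18: ttgtaccttaTATTTAtgtgtaattt
Cdh10: tacgacatttTATTTAatcacttcca
Cdh11: gcacacaaaaTATTTAaatgaaggag
Cdh19: tattaaggtaTATTTAtataaaatga
Cdh20: ggtggtacatTATTTAactcttttga
Cntn1: ccataaagaaTATTTAcaggaaacaa
The lines run 5′ to 3′ on the transcript strand, in letters of GENCODE M21 transcripts (GRCm38), and the matches start at bases 207, 192, 259, 39, 556 and 1480 of the 3′ UTR. Cdh10, Cdh11 and Cdh19 each held 3 matches, Pcdh18 and Cntn1 held 2, and Cdh20 held 1. Genes are shown here only where they held the motif, and Pcdh1, also short-lived in OPCs, held none. Among all listed transcripts whose 3′ UTR was alike in length (the shorter at least 0.8 times the longer), 56.2% held the motif at the length of Pcdh18, 32.4% at that of Cdh10, 71.1% at that of Cdh11, 57.6% at that of Cdh19, 48.1% at that of Cdh20 and 72.4% at that of Cntn1. The transcripts lie on chr3:49743296-49757316 (Pcdh18), chr15:18820329-19014236 (Cdh10), chr8:102632095-102785642 (Cdh11), chr1:110888326-110977363 (Cdh19), chr1:104768529-104995481 (Cdh20) and chr15:92128188-92341953 (Cntn1). Outside the protocadherin clusters, 7 of 9 members with a mean half-life under 3 h in OPCs held TATTTA, against 7 of 16 members at 5 h or more. The same shares over all transcripts were 56.4% and 37.9%. In OLs the counts were 5 of 6 and 12 of 20, beside 60.4% and 39.7% of all transcripts.

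The other motif searched was ACTAAC or ACTAAT, the letters bound by quaking, an RNA-binding protein of myelinating glia. Cadm4, at the ceiling in every replicate, held it once, 887 bases into its 3′ UTR, on the transcript at chr7:24482023-24504539:
Cadm4: tggcaatcccACTAACcaccattaaa
Of the 3′ UTRs of like length, 25.5% held it. The motif was also in short-lived Cdh11 (2 matches) and Pcdh18 (1 match). Outside the clusters it was held by 3 of 9 members under 3 h and 4 of 16 at 5 h or more in OPCs (35.4% and 31.7% of all transcripts), and by 2 of 6 and 5 of 20 in OLs (38.7% and 30.5%). Both motifs were about as dense in the 75 adhesion genes as in all listed transcripts, at 0.684 against 0.700 per kb for TATTTA and 0.359 against 0.347 per kb for ACTAAC or ACTAAT. Only the transcript strand was searched, matches that overlap were each counted, and a match is a description of letters.

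At 0 h, labelled RNA is RNA made during the 24 h of labelling and still present, so synthesis and decay both enter it. At this time, 15 of the 53 shared adhesion genes were higher in OLs (28.3%) and 4 were lower (7.55%). These passed limma on log2(FPKM + 1) with an adjusted p under 0.05. Over all 8177 shared transcripts, 13.8% were higher and 15.8% were lower, 29.6% in all. An unadjusted p under 0.05 was reached by 30 of the 53 genes, against 42.9% of transcripts. The median difference, OL minus OPC on the log2(FPKM + 1) scale, was 0.59 for the adhesion genes and −0.01 for all transcripts. Both OL replicates lay above all 3 OPC replicates for 30 of the 53 genes (28.0% of all transcripts) and below them for 5 (31.4% of all). The p-values measure only the spread between these 3 and 2 samples. The count of 19 called genes fell to 9 without OPC replicate 3, 7 without OL replicate 1 and 9 without OL replicate 2. Leaving out an OL replicate leaves 1 OL sample, so that the OPC replicates alone then give the spread. Cntn1, Cadm1, Cadm4, Pcdh7, Cdh22 and Celsr2 passed under every alternative, those runs included.

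Immunoglobulin-superfamily genes held the 3 highest levels outside the protocadherin clusters in OLs, Cntn1, Cadm4 and Nfasc. Cntn1, a lipid-anchored contactin, was at 70.2, 54.8 and 55.0 FPKM in OPCs and at 284 and 232 FPKM in OLs at 0 h. The groups were far apart, with means of 60.0 ± 8.85 (SD, n = 3) and 258 ± 36.7 (n = 2), a 4.29-fold difference (log2 difference 2.09, SE 0.23, limma adjusted p = 0.000634). Cadm4, the glial Cadm gene, was at 67.5, 47.2 and 57.8 FPKM in OPCs and at 191 and 143 FPKM in OLs (log2 difference 1.53, SE 0.25, limma adjusted p = 0.00373). Its relative Cadm1, a homophilic and heterophilic adhesion molecule, was at 14.4, 11.9 and 12.2 FPKM in OPCs and at 57.6 and 33.5 FPKM in OLs (1.70, SE 0.27, limma adjusted p = 0.00337). For all 3 genes OL replicate 1, which also held more oligodendrocyte marker RNA, was the higher of the pair and the groups did not overlap.

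Ncam2, a neural cell adhesion molecule, had the largest log2 difference of the shared members. It was at 1.54, 7.53 and 8.73 FPKM in OPCs and at 52.6 and 41.3 FPKM in OLs (3.00, SE 0.53, limma adjusted p = 0.00540), and OPC replicate 1 stood well below the other two. Ncam1 was at 56.8, 38.9 and 36.2 FPKM in OPCs and at 50.5 and 50.2 FPKM in OLs, so that the groups overlapped. Nrcam, an L1-family molecule, was at 14.4, 19.7 and 16.4 FPKM in OPCs and at 21.9 and 44.2 FPKM in OLs and did not pass the test. Nfasc, the gene of neurofascin, was listed for OLs alone, at 190 and 103 FPKM. Its level in OPCs is not known from these tables.

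Among the cadherins, some type II genes were higher in OLs and the seven-pass genes were lower. Cdh20, a type II cadherin, was at 17.2, 22.0 and 19.7 FPKM in OPCs and at 41.1 and 36.7 FPKM in OLs (log2 difference 0.96, SE 0.22, limma adjusted p = 0.0146). Cdh10 was at 9.39, 11.8 and 13.0 FPKM in OPCs and at 20.9 and 20.1 FPKM in OLs (0.81, SE 0.22, limma adjusted p = 0.0302). Cdh22, also of type II, went the other way, with 23.4, 11.1 and 15.5 FPKM in OPCs against 1.43 and 2.72 FPKM in OLs (−2.50, SE 0.34, limma adjusted p = 0.00152). None of these groups overlapped.

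Celsr1 and Celsr2, seven-pass cadherins of planar cell polarity, were the only members of that family listed for both cell types. Celsr1 was at 8.54, 7.94 and 10.1 FPKM in OPCs and at 1.35 and 3.46 FPKM in OLs (−1.60, SE 0.30, limma adjusted p = 0.00685). Celsr2 was at 16.7, 16.7 and 19.6 FPKM in OPCs and at 7.05 and 6.11 FPKM in OLs (−1.30, SE 0.21, limma adjusted p = 0.00373). Celsr3 was listed for OPCs alone, at 1.25, 1.62 and 1.58 FPKM. The giant Fat cadherins did not pass the test: Fat1 was at 68.5, 81.4 and 79.5 FPKM in OPCs and at 61.6 and 74.0 FPKM in OLs, and Fat3 at 3.79, 7.22 and 6.81 and at 4.37 and 6.67. Cdh2, N-cadherin, was at 39.0, 52.5 and 40.3 FPKM in OPCs and at 50.1 and 54.5 FPKM in OLs, which overlapped.

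Pcdh7, a non-clustered protocadherin, was at 12.6, 20.9 and 21.5 FPKM in OPCs and at 63.0 and 57.3 FPKM in OLs, with no overlap (log2 difference 1.70, SE 0.27, limma adjusted p = 0.00356). The other shared members of its group, Pcdh1, Pcdh11x and Pcdh19, had log2 differences of 0.65, 0.59 and 0.61 and did not pass. Of the neurexins, presynaptic receptors, and neuroligins, their postsynaptic partners, Nrxn2, Nrxn3, Nlgn1 and Nlgn2 did not pass. Nrxn2 was at 22.9, 24.3 and 36.5 FPKM in OPCs and at 17.3 and 26.0 FPKM in OLs.

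**Figure D1:**
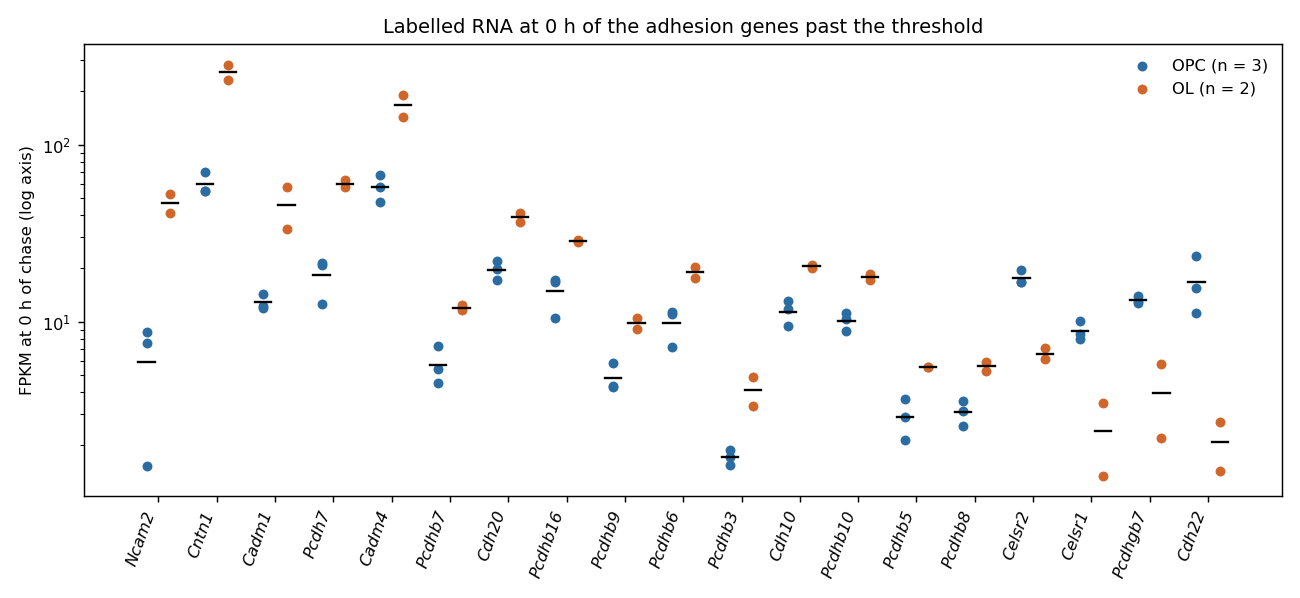
FPKM at 0 h of chase on a log axis for the 19 adhesion genes past the threshold, ordered by log2 difference. Each point is 1 replicate (3 OPC, 2 OL) and each bar a group mean; the groups of every gene shown were apart, with 15 genes higher and 4 lower in OLs.

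Besides Nfasc, OLs alone listed Cdh11 at 41.4 and 26.7 FPKM and Cdh19 at 5.91 and 5.02 FPKM, both type II cadherins. They also alone listed the protocadherins Pcdh8 at 7.96 and 7.01 FPKM, Pcdh15 at 5.78 and 6.65, Pcdh17 at 5.83 and 3.21 and Pcdh10 at 1.90 and 1.51, as well as Cadm3, Pcdhb2, Pcdha9, Pcdhga5, Pcdhgc4 and Pcdhgc5, between 1.19 and 6.86 FPKM. OPCs alone listed Cdh4 (R-cadherin) at 12.7, 9.18 and 12.3 FPKM, Pcdh18 at 5.87, 9.10 and 4.80 FPKM and Cdh24 at 5.66, 4.84 and 4.59 FPKM. The others on that side were Celsr3, Pcdhga7, Pcdhga12, Pcdhgb1, Pcdhgb4 and Pcdhgb5. No fold change is given for these genes, because the level in the other cell type is not analysed here. Over all listed members, adhesion genes took 0.234% to 0.279% of the summed 0 h FPKM in OPCs and 0.515% and 0.491% in OLs.

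The β cluster, in which each protocadherin gene is a single exon, was listed with 20 genes in OLs and 19 of them in OPCs. Of the 19 genes listed for both, 8 were higher in OLs at 0 h and none was lower, where 13.8% of all transcripts were higher and 15.8% lower, with log2 differences from 0.12 to 1.04 over the 19. Those past the threshold were Pcdhb3, Pcdhb5, Pcdhb6, Pcdhb7, Pcdhb8, Pcdhb9, Pcdhb10 and Pcdhb16. Pcdhb7, as an example, was at 5.37, 7.24 and 4.50 FPKM in OPCs and at 12.3 and 11.6 FPKM in OLs (0.97, SE 0.24, limma adjusted p = 0.0207). Pcdhb16, the highest of them, was at 10.5, 17.3 and 16.7 FPKM in OPCs and at 29.1 and 28.0 FPKM in OLs (0.93, SE 0.26, limma adjusted p = 0.0318). Summed over the 19 genes, the level was 82.7, 139 and 124 FPKM in OPCs and 193 and 212 FPKM in OLs, with OPC replicate 1 the lowest. The adjusted p-values of these 8 genes reached 0.12 to 0.21 under the alternative that weakened each most, so none of them passed under every alternative.

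In the γ cluster, transcripts each join a variable exon to the same 3 constant exons, so that 41.7% to 45.5% of the exonic bases of each listed Pcdhg transcript are shared with other listed ones, and reads from those bases cannot be assigned to 1 transcript. Pcdhgc3 alone made up 68.4% to 78.4% of the summed 0 h FPKM of the 7 Pcdhg transcripts listed for both cell types. It was listed as the highest adhesion gene in OPCs, at 232, 216 and 225 FPKM, and the second highest in OLs, at 172 and 165 FPKM. Pcdhgb7 was the only Pcdhg transcript past the threshold, with 13.9, 12.7 and 13.1 FPKM in OPCs and 2.19 and 5.72 FPKM in OLs (−1.62, SE 0.32, limma adjusted p = 0.00818).

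Pcdhg transcripts moved by large steps between neighbouring time points. Pcdhgb1 ran from 10.6 FPKM at 0 h through 4.22, 0.33 and 0.22 to 20.3 FPKM at 6 h in OPC replicate 1, and Pcdhgb4 from 10.6 through 4.32, 0.43 and 0.40 to 20.7 FPKM. Both traces thus fell to near 0 and ended above their start. The median over transcripts of the largest step between neighbouring time points, after centring each library on its median, was 4.04, 2.13 and 4.15 log2 units for Pcdhg in OPC replicates 1 to 3 and 2.65 and 2.88 in OLs. For Pcdhb the same medians were 1.15, 1.60 and 1.48 in OPCs and 0.80 and 0.50 in OLs, beside 1.27, 1.74 and 1.40 and 0.82 and 0.74 for all transcripts. The levels and half-lives of single Pcdhg transcripts, Pcdhgc3 included, are therefore uncertain, and the short half-lives listed for Pcdhga7, Pcdhgb4, Pcdhga4 and Pcdhgb1 in OPCs (means of 0.765, 0.816, 1.02 and 1.02 h) and for Pcdhga5, Pcdhgc4 and Pcdhga4 in OLs (0.776, 1.16 and 1.16 h) belong to such traces.

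**Figure D2:**
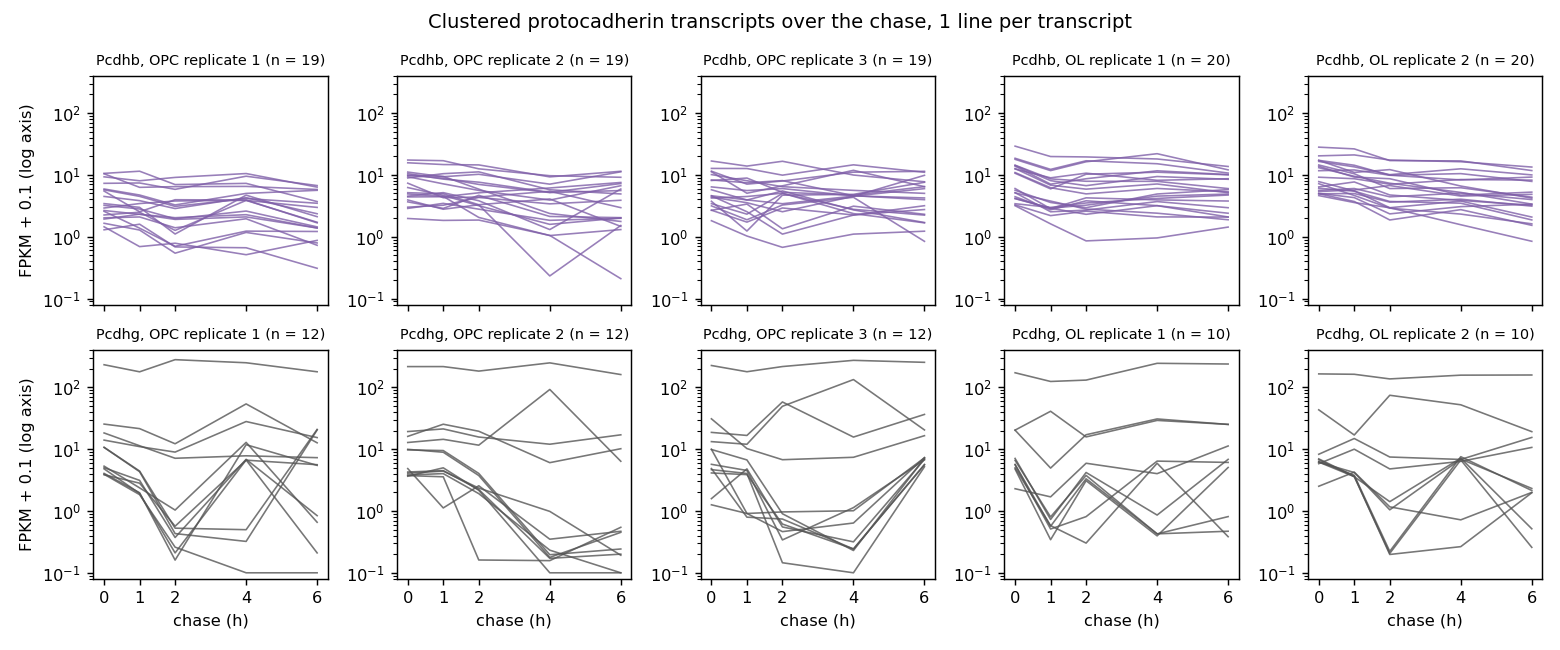
FPKM + 0.1 on a log axis against chase time in h, with 1 line per transcript and 1 panel per replicate, for Pcdhb (top, 19 in OPCs and 20 in OLs) and Pcdhg (bottom, 12 and 10). The median largest step between neighbouring time points, each library centred on its median, was 0.50 to 1.60 log2 units for Pcdhb and 2.13 to 4.15 for Pcdhg, and Pcdhgc3 was the highest line of its cluster.

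For the adhesion genes, the median share of the 0 h FPKM that was kept at 6 h was 44.9%, 38.2% and 64.9% in the OPC replicates, against 14.4%, 11% and 17.7% over all transcripts. In OLs it was 60.6% and 42.9%, against 31.5% and 36.6%. The median over all members was above that of all transcripts in each replicate, least so in OL replicate 2, but families differed. Classical and type II cadherins kept a median of 17.7% and 28.9% in OLs, below all transcripts. In OPCs they kept 13.8%, 18.4% and 35.2%, above all transcripts in replicates 2 and 3. Non-clustered protocadherins kept 23.45%, 7.27% and 20.0% in OPC replicates 1 to 3 and 52.5% and 23.9% in OLs. They were below all transcripts in OPC replicate 2 and OL replicate 2 and above them in the other replicates. More than the library median was kept by 51, 46 and 54 of the 62 members in OPCs and by 56 and 41 of the 66 in OLs, where 50.0% of all transcripts lie above the median by construction.

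In OPCs, the slope of log2(FPKM + 1) on chase time was below 0 with an adjusted p under 0.05 for 29 of 62 adhesion genes (46.8%), against 81.7% of all 8530 transcripts. In OLs it was so for 32 of 66 (48.5%), against 68.4% of all 9751. For the adhesion genes the median slope came to −0.13 log2 units per h in OPCs and −0.11 in OLs, and for all transcripts to −0.38 and −0.20. Slopes above 0 passed for 4 members in OPCs (background 4.31%), among them Cdh13, Ncam1 and Pcdhb9, at 0.18, 0.15 and 0.11 log2 units per h. In OLs they passed for Cadm4 and Pcdhgb7 (background 1.50%), at 0.13 and 0.20. These directions rest on the spike-in scale: with each library scaled to the 0 h median of its replicate, 42 members rose and 5 fell in OPCs, and 31 rose and 3 fell in OLs. The median slope of all transcripts was then −0.02 and 0.01. The shares of all transcripts that rose or fell under that scaling are not given here, so these counts are not read against a background. Without OL replicate 2, 10 members fell in OLs.

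For half-lives, the ceiling was reached by 30, 23 and 32 of the 59 adhesion genes with a half-life in OPC replicates 1, 2 and 3 (50.8%, 39.0% and 54.2%), where the background was 24.3%, 25% and 31.1%. It was reached by 37 and 27 of 65 in OL replicates 1 and 2 (56.9% and 41.5%), where it was 39.7% and 36.1%. The median member stood at the 87.8th, 70.4th and 84.4th percentile of half-lives in OPCs and at the 80.1st and 58.0th in OLs. In OPC replicates 1 and 3 and OL replicate 1 it was at the ceiling. There the percentile is the middle rank of all transcripts tied at the ceiling and depends on how many they are. No test was made of the list as a whole, since its members share families and were not drawn as a sample.

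**Figure D3:**
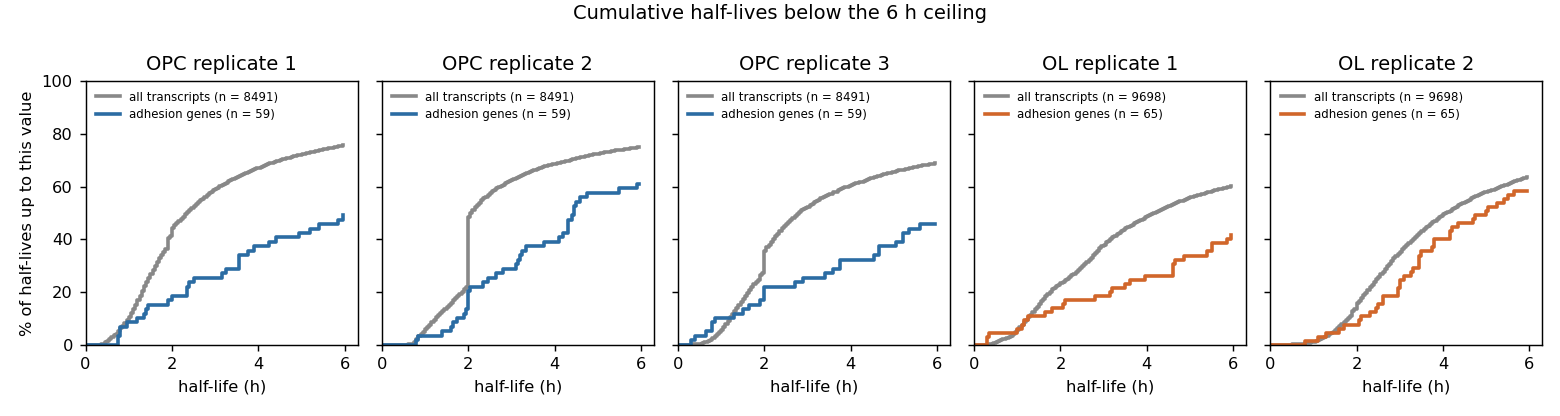
Percent of half-lives up to each value in h below the 6 h ceiling, by replicate, for adhesion genes (coloured) and all transcripts (grey). The coloured line ended lower in every replicate, which left 39.0% to 56.9% of the adhesion genes at the ceiling, and the grey line jumped at 1.96 h in OPC replicate 2.

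Cntn1, Cadm4, Ncam1 and Nfasc were at the ceiling wherever they were listed. Cntn1 kept 111%, 129% and 170% of its 0 h FPKM at 6 h in OPCs and 101% and 75.1% in OLs. Cadm4 kept 89.7%, 128% and 141% in OPCs and 175% and 137% in OLs. Ncam1 kept 127%, 137% and 243% and then 112% and 93.5%, and Nfasc kept 105% and 57.4% in OLs. Nrcam, by contrast, had a half-life of 4.41 h in OPC replicate 2, where it kept 18.2%, and was at the ceiling in the other replicates. A share above 100% means a level above that at 0 h on the authors' scale.

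Across all 5 replicates, 14 of the 51 genes with every half-life were at the ceiling (27.5%, against 16.1% of 8112 transcripts). In OPCs the 16 members at the ceiling in all 3 replicates (27.1% of 59, against 17.4%) included Cadm4, Cdh2, Cdh13 (T-cadherin, a lipid-anchored cadherin), Celsr2, Cntn1, Ncam1, Nlgn2, Nrxn2, Nrxn3, Pcdhgc3, Pcdhb5, Pcdhb6, Pcdhb9, Pcdhb11 and Pcdhb12. In OLs the ceiling was reached in both replicates by 24 members (36.9% of 65, against 28.9%), among them Nfasc, Nrcam, Cadm3, Celsr1 and Pcdhac2. Nrxn2, Nrxn3 and Nlgn2 were at the ceiling in every replicate, whereas Nlgn1 had half-lives of 3.54, 2.43 and 2.87 h in OPCs and 2.78 and 2.55 h in OLs.

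Outside the γ cluster, the shortest mean half-lives were those of Pcdh18, Cdh10 and Pcdh1 in OPCs and of Cdh19, Cdh10, Pcdhb13 and Cdh11 in OLs. Cdh20 had half-lives of 1.17, 1.96 and 1.96 h in OPCs and 2.08 and 2.25 h in OLs. Cdh10 had 1.37, 1.85 and 1.48 h in OPCs and 1.60 and 1.67 h in OLs. Cdh11, involved in mesenchymal and neural adhesion, had 1.14 and 2.44 h in OLs, and Cdh19 had 1.08 and 2.08 h. Pcdh18 had 0.911, 0.846 and 1.26 h in OPCs, the lowest mean outside the γ cluster. Pcdh1 had 1.32, 1.61 and 1.96 h in OPCs and 6.00 and 2.57 h in OLs. In the β cluster, Pcdhb13 was the shortest in OLs, at 0.988 and 2.45 h, and had 2.34, 1.70 and 6.00 h in OPCs. A half-life of 1.96 h recurred in 2174 of 8491 transcripts in OPC replicate 2 (25.6%) and in 638 in OPC replicate 3 (7.51%), equal within 0.0015 h. Cdh20 held this value in both, Pcdh19, Pcdhga4 and Pcdhgb2 in replicate 2, and Pcdh1 and Celsr3 in replicate 3.

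**Figure D4:**
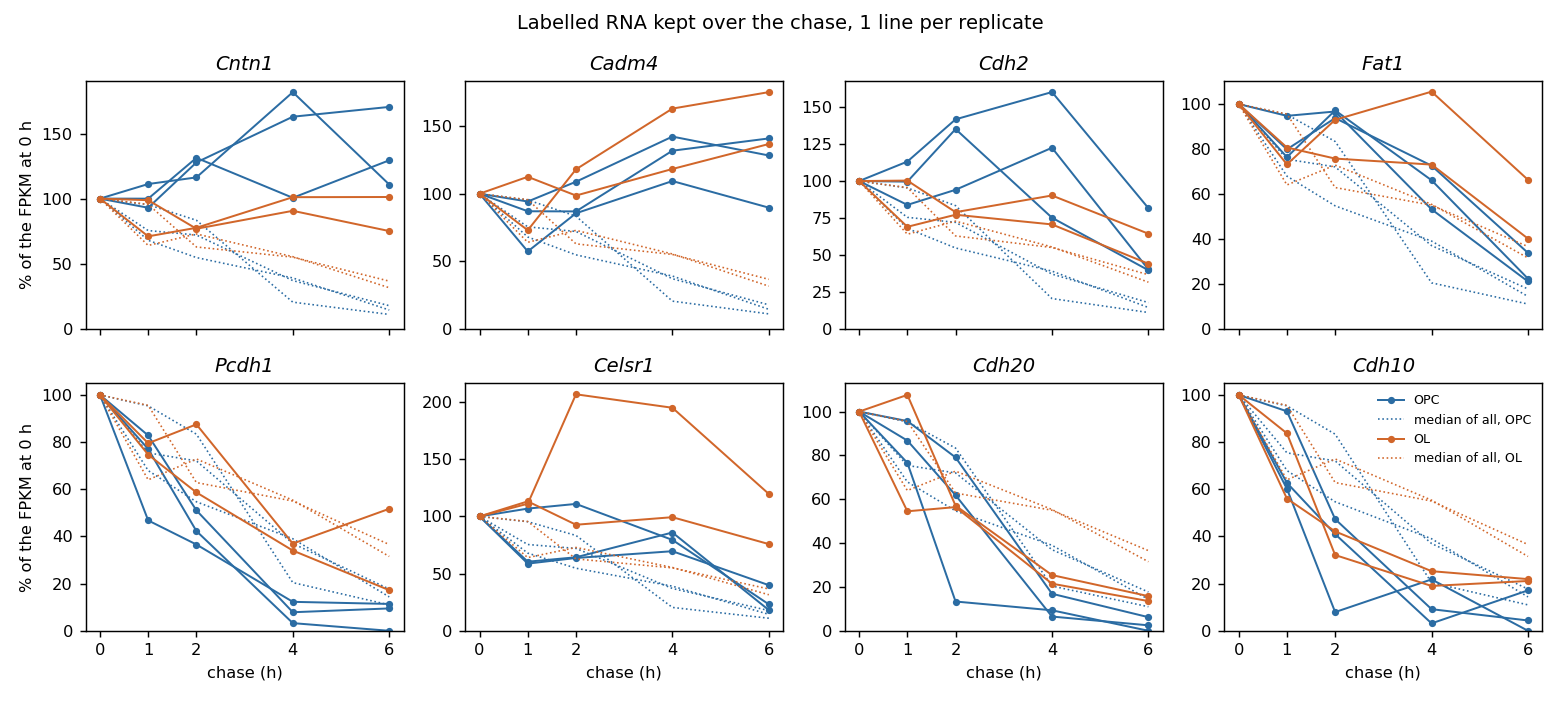
Labelled RNA as a percent of the FPKM at 0 h against chase time in h for 8 adhesion genes, with 1 solid line per replicate and dotted lines for the median of all transcripts in each library. Cntn1 ended at 75.1% to 170% and Cadm4 at 89.7% to 175%, Cdh20 and Cdh10 ended below the library medians, and Pcdh1, Celsr1 and Fat1 ended higher in both OL replicates than in any OPC replicate.

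No adhesion gene passed the test for a different half-life in OLs. By limma on log2 half-life, 0 of 51 passed, against 3.39% of 8112 transcripts longer and 0.148% shorter (3.54% in all), and 2 had an unadjusted p under 0.05, against 23.0%. Those 2 were Cadm1, at 6.00, 5.50 and 6.00 h in OPCs and 4.83 and 5.03 h in OLs (limma adjusted p = 0.123), and Fat4, at 2.45, 2.62 and 3.70 h in OPCs and 6.00 and 4.70 h in OLs (limma adjusted p = 0.170). No other tool was run on half-lives. A gene at the ceiling in all replicates cannot show a difference.

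Replicates of both cell types did not overlap for 7 genes. Half-lives were longer in both OL replicates than in all OPC replicates for Fat4, Pcdh1, Pcdhb3 and Cdh20 (4 of 51, against 35.9% of all transcripts). They were shorter for Cadm1, Cdh22 and Pcdhb12 (3 of 51, against 2.01%). Cdh22, the cadherin that was lower in OLs at 0 h, had 6.00, 4.28 and 6.00 h in OPCs and 1.76 and 3.46 h in OLs. These 7 genes were chosen after their values were seen.

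Medians over the 51 genes were 6.00, 4.57 and 6.00 h in OPCs and 6.00 and 5.22 h in OLs. The mean of the OL medians exceeded that of the OPC medians by 0.0835 h, less than the SD of 0.824 h between OPC replicates. Over all 8112 transcripts the medians were 2.35, 2.08 and 2.83 h in OPCs and 4.54 and 4.44 h in OLs, which is 2.07 h longer. The ceiling bounds the medians of the adhesion genes from above, so the 2 differences are not on an equal footing. The sign of the small difference of the adhesion genes was not stable: it was −0.865 h when half-lives were refitted without 6 h, −1.90 h on 1 mean decay curve, −0.392 h without OPC replicate 2 and −0.309 h without OL replicate 1, and 0.321 h to 0.476 h without any 1 of the other replicates.

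The slope of decay, which has no ceiling, was less negative in OLs for 4 of 53 adhesion genes (7.55%) by limma on all 25 libraries, against 32.1% of all 8177 transcripts. It was more negative for none, against 0.391% (32.5% in either direction), and 8 genes had an unadjusted p under 0.05, against 43.5%. These p-values measure the scatter of the 25 libraries around 1 slope per cell type. Libraries of 1 replicate are not independent cultures, and the spread of slopes between replicates is not measured. The 4 genes belong to different families. Cdh20 had slopes of −0.69, −0.74 and −0.60 log2 units per h in OPCs and −0.44 and −0.46 in OLs (difference 0.22, SE 0.08, limma adjusted p = 0.0316). At 6 h it kept 0%, 2.49% and 6.21% in OPCs and 13.6% and 15.8% in OLs, below the library median in each replicate.

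Pcdh1 had slopes of −0.37, −0.60 and −0.48 in OPCs and −0.18 and −0.36 in OLs (difference 0.22, SE 0.08, limma adjusted p = 0.0335). Celsr1 had −0.23, −0.27 and −0.13 in OPCs and 0.04 and −0.05 in OLs (0.20, SE 0.07, limma adjusted p = 0.0347). Fat1 had −0.32, −0.37 and −0.23 in OPCs and −0.05 and −0.18 in OLs (0.19, SE 0.07, limma adjusted p = 0.0421). Every OL replicate lay above every OPC replicate for the 4 genes. None of the 4 passed without OPC replicate 2, without OL replicate 1 or without OL replicate 2. With libraries scaled to their 0 h medians, the differences of Celsr1 and Fat1 turned to −0.04 and −0.07. Under that scaling 30 of the 53 genes had a more negative slope in OLs and none a less negative one. The median difference was then −0.20 for the adhesion genes and −0.03 for all transcripts. The share of all transcripts that passed under it is not given here. That scaling multiplies all transcripts of a library by 1 factor, so the changes of sign do not test these genes alone.

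By replicate, the slopes of 9 of the 53 genes were higher in both OL replicates than in all OPC replicates (17.0%, against 50.9% of all transcripts). Those of Pcdhb6 and Pcdhb20 were lower (3.77%, against 3.27%). At 6 h, both OL replicates had kept more of the 0 h FPKM than any OPC replicate for 12 genes (22.6%, against 48.9% of all transcripts). Among them were both shared Celsr genes, Fat1, Fat4, Cdh10, Cdh20, Pcdh1 and Pcdh7. They had kept less for 7 genes (13.2%, against 2.86% of all transcripts), which were Cntn1, Ncam1, Pcdhb6, Pcdhb9, Pcdhb12, Pcdhb19 and Pcdhb20. None of these 7 passed the test of the slope difference on the authors' scale.

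**Figure D5:**
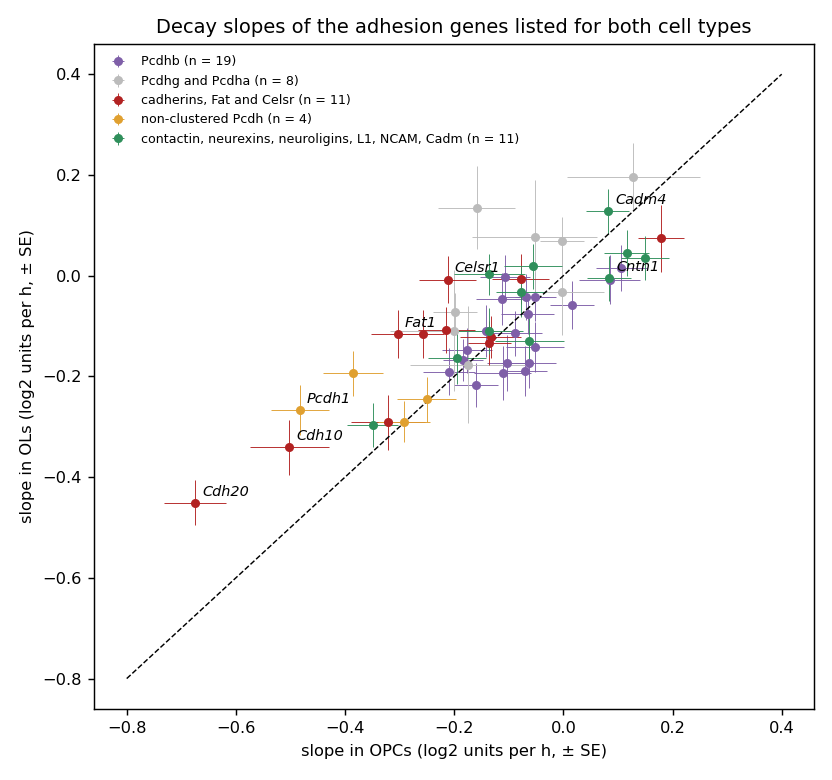
Slope of log2(FPKM + 1) per h of chase in OLs against that in OPCs for the 53 adhesion genes listed for both cell types, with SE bars from limma and a dashed line of equal slopes. Cdh20, Cdh10 and Pcdh1 had the steepest slopes in OPCs, Cntn1 and Cadm4 lay near or above 0 in both, and Cdh20, Pcdh1, Celsr1 and Fat1 were the 4 genes past the threshold above the line, a side that Celsr1 and Fat1 leave when libraries are scaled to their 0 h medians.

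Genes whose products bind, anchor or cut adhesion molecules were taken from a list of 67, of which 44 were listed for both cell types. At 0 h, 14 of the 44 were higher in OLs (background 13.8%) and 7 were lower (15.8%), and 4 had a longer half-life (3.39%). Ctnnb1, β-catenin, was at 501, 403 and 405 FPKM in OPCs and at 273 and 288 FPKM in OLs (log2 difference −0.63, limma adjusted p = 0.0611) with half-lives at the ceiling throughout. Of the linkers to the membrane skeleton, Epb41l2 was at 4.17, 10.6 and 8.85 FPKM in OPCs and at 146 and 101 FPKM in OLs (3.86, limma adjusted p = 0.000352), and Sptbn1 and Epb41 were also higher. Ank3, ankyrin G, was listed for OLs alone, at 8.69 and 1.46 FPKM, and Ank2 was not analysed here.

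All 4 listed partners of the Fat and Dachsous pathway were lower in OLs: Dchs1, Fjx1, Limd1 and Dlg5. Dchs1, a Fat ligand, was at 22.6, 32.6 and 31.7 FPKM in OPCs and at 9.98 and 10.5 FPKM in OLs (−1.40, limma adjusted p = 0.00456). Among scaffold proteins, Cask was at 14.4, 21.9 and 16.7 FPKM in OPCs and at 51.2 and 52.0 FPKM in OLs (1.51, limma adjusted p = 0.00325), and Dlg1, Dlg3, Mpp5, Apba1 and Apba2 were higher too while Dlg4 was lower. Ctnna1, Ctnnal1, Pkp4, Psen2 and Bace1 were higher, and the latrophilins Adgrl1 and Adgrl2 were lower. Adam10, a sheddase of N-cadherin, was at 46.4, 71.9 and 55.4 FPKM in OPCs and at 54.4 and 61.0 FPKM in OLs, which overlapped.

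The 4 partners with a longer half-life in OLs were Vcl, Dlg1, Dlg5 and Mpp2, and none of them passed with the replicate number as a block or without OPC replicate 1. Without any 1 of the other replicates, 1 or 2 partners passed in half-life. Dlg1 had 1.86, 1.80 and 1.80 h in OPCs and 4.45 and 3.54 h in OLs (log2 difference 1.13, SE 0.12, limma adjusted p = 0.0427). Vcl, vinculin, had 1.83, 1.96 and 2.25 h in OPCs and was at the ceiling in OLs (1.58, SE 0.11, limma adjusted p = 0.0246). Dlg5 was also at the ceiling in both OL replicates. For Vcl and Dlg5 the ceiling leaves no spread in OLs, so the p-values do not measure it there. Both also held the recurring value of 1.96 h in OPC replicate 2. The count of 23 partners changed at 0 h or in half-life was 11 without OL replicate 1 and 14 without OL replicate 2.

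As a list, the adhesion transcripts also differed in structure from all listed transcripts. Their median coding sequence was 2742 bases long, against 1401 bases over all listed transcripts, and their median 3′ UTR 1744 against 1096 bases. All 20 Pcdhb transcripts are single-exon, as are 3.04% of all listed transcripts. AAA made up 45.5% of lysine codons in the median adhesion gene and 37.5% in the median transcript. UUU made up 44.6% and 44.4% of phenylalanine codons, and G or C stood at the third codon position in 58.3% and 60.6% of codons. These medians lean on the clusters. For the 38 members outside them, AAA was at 41.0%, third-position G or C at 62.0% and the 3′ UTR at 1580 bases. The median 3′ UTR of the 15 Pcdhg transcripts, which share constant exons, was also 1744 bases.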

How the data were processed

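Per the paper's methods and the labels, the authors aligned 5-EU reads to GRCm38 with HISAT2 2.1.0, tabulated FPKM with StringTie 1.3.5, scaled it to spike-in reads and fitted half-lives by least absolute deviations with a ceiling of 6 h. The methods give this scaling for every time point, but the deposited FPKM at 0 h carries more digits than the rest. Read depth is unknown from FPKM, so no counting error is given. Levels (log2(FPKM + 1)), log2 half-lives and chase slopes were tested with limma 3.58.1 in R 4.3.3 (eBayes, two-sided, Benjamini-Hochberg over all transcripts, threshold 0.05). Slope fits had an intercept per replicate and 1 slope per cell type, so their p-values do not measure the spread of slopes between replicates. Refitted half-lives lay within 0.01 h of the deposited ones for 98.2% to 99.9% of transcripts. All 75 members matched GENCODE M21 transcripts. Members called at 0 h, in half-life or in slope difference were named, with the 5 highest, the 5 longest- and shortest-lived, those listed for 1 cell type and genes of known glial role. Members and lists were chosen with earlier results of these data known. The study matches both OL replicates to OPC replicates without saying which, so replicate numbers were not taken as pairs. The OPC control without biotin was not analysed here. Fits were tested on simulated data. One member is not reported by name here.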

Additional observations from a re-analysis of the deposited data

Results flagged for a closer look

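The decay slope differed between cell types for 4 adhesion genes by a test of the difference itself, OL minus OPC in log2 units per h. The difference was 0.224 for Cdh20, 0.2159 for Pcdh1, 0.2044 for Celsr1 and 0.1875 for Fat1, each over 3 OPC and 2 OL replicates with no overlap of the replicate slopes. The labelled RNA of all transcripts also declined less in OLs, with a median slope difference of 0.14, and 32.1% of transcripts passed in that direction. Groups of 3 and 2 replicates were too small for a check of single outlying samples. None of the 4 passed under every alternative, and with libraries scaled to their 0 h medians Celsr1 and Fat1 changed sign and 30 adhesion genes passed in the other direction. The share of all transcripts that passed in that direction under this scaling is not given here.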

How the results depend on the processing

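The number of adhesion genes with a different 0 h level (19) was 15 to 20 under the other pseudocount, the 5 FPKM minimum, equal 0 h medians, a mean-variance trend and the replicate block, and 7 to 19 with 1 replicate left out. No 0 h difference changed sign. The replicate block gave 15, of which 12 were among the 19, and 17 partners instead of 23, 0 of them in half-life. With 1 replicate left out, 11 to 23 partners passed. For half-lives, 0 became 4 (Cadm1, Pcdh11x, Pcdhb16 and Pcdhb20, all shorter) when every library was rescaled to 1 mean decay curve, and 0 to 2 with 1 replicate left out (Pcdhb10 and Pcdhb12 without OL replicate 1). It stayed 0 with the replicate block, which called 0 of all transcripts. The difference of the median half-life (0.0835 h) was −0.865 h when refitted without 6 h, −1.90 h on the mean decay curve and −0.392 to 0.476 h with 1 replicate left out. The count that fell in OPCs (29) was 18 of 40 at 5 FPKM or more, 5 with libraries scaled to their 0 h medians and 22 to 32 with 1 replicate left out. The count in OLs (32) was 16 without 6 h, 3 with that scaling and 10 to 31 with 1 replicate left out. With no replicate block the counts were 27 and 24. The 4 slope differences became 7 with a pseudocount of 0.1, 2 without 6 h (1 up and 1 down), 2 with no replicate block, 30 in the other direction with libraries scaled to 0 h medians, and 0 to 5 with 1 replicate left out. Under that scaling the slope differences of Celsr1 and Fat1 were −0.038 and −0.069. Leaving out the Pcdhg and Pcdha transcripts, chosen after seeing the data, gave 18, 0, 26, 31 and 4. The cause of these changes was not tested. Apart from the replicate block in half-life, no share of all transcripts is set beside the counts above. Replicate numbers did not deviate together (r of 0.06 and 0.01 for the 0 h level of numbers 1 and 2).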
